A study of Mus musculus with 6 samples.

Results

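Translation initiation factors are the proteins that bring the ribosome to the start codon of an mRNA. The set described here holds the mouse protein-coding genes whose symbols begin with Eif1 to Eif6, without the Eif2ak kinase genes and without the sex-linked pair Eif2s3x and Eif2s3y. The rule found 50 genes among 40808 gene IDs in the table. It used names only, not measured values, but the members were chosen with earlier results of these data known. The set comprised 5 eIF1 genes, 9 eIF2 and eIF2B genes, 14 eIF3 genes, 17 eIF4 genes, 4 eIF5 genes and 1 eIF6 gene. The RNA is described as coming from leukaemia cells of the spleen of mice that had received a bone marrow transplant. The share of leukaemia cells in a library was not measured, and markers of cell types differed widely between the groups (below). The RNA was compared in 3 libraries labelled as not receiving Dox (replicates 4, 5 and 6) and 3 labelled as receiving it (replicates 10, 11 and 12). The labels do not spell out Dox, and they give no dose, duration, genotype, strain, sex or age, nor the gene that Dox was meant to control. Nothing in the labels says that the libraries of a group came from separate mice, so the p-values measure the spread between these libraries.

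In canonical initiation, eIF2 carries the initiator tRNA to the small ribosomal subunit, where eIF1, eIF1A, eIF3 and eIF5 join it. The eIF4F complex, made of the cap-binding protein eIF4E, the scaffold eIF4G and the RNA helicase eIF4A, brings that subunit to the capped end of the mRNA. Control acts at both steps: phosphorylation of eIF2 blocks its recycling by eIF2B, and 4E-BP proteins keep eIF4E from eIF4G unless mTORC1 phosphorylates them. Lymphoid cells are known to raise their initiation factors as they begin to grow and divide.

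The libraries held 5541486 to 8725767 counts, and 49 of the 50 genes passed the filter on low counts. The exception was Eif4e1b, a germline form of eIF4E, with 0 counts in every library, where 3 counts, taken as the detection floor, equal 0.309 to 0.608 CPM, a count per library total after TMM scaling. Of the 49 tested genes, 41 had at least 100 counts in every library. Summed markers of cell types and of cycling cells differed between the groups. The 15 T cell markers summed to 3077 to 3386 CPM in libraries without Dox but to 275 to 355 CPM in Dox libraries, and 13 were lower. The 12 B cell markers summed to 52.8 to 56.8 CPM and 2352 to 2477 CPM in the same order, with all 12 higher. Myeloid markers summed to 196 to 197 CPM and 1913 to 2076 CPM, with 9 of 12 higher and 1 lower. Among the higher ones, Ly6g and Cebpe were at 0 counts in each library without Dox. The lower one was Adgre1 (log2 fold change -1.68), and Csf1r and Cd68 were called in neither direction. Erythroid markers summed to 94459 to 104500 CPM and 133530 to 143470 CPM, with 5 of 12 higher and 2 lower. Cycling markers summed to 4294 to 4550 CPM and 2734 to 3427 CPM, with 10 of 12 lower. Stromal markers summed to 427 to 474 CPM and 491 to 624 CPM, with 3 of 10 higher and 2 lower. Of all tested genes, 23.6% were called higher and 22.1% lower, so the stromal counts are near the shares of all genes. The Y-linked gene Eif2s3y had 171 to 253 counts without Dox and 0 with Dox, and Xist, which coats the inactive X, followed the groups in the opposite direction (193 to 324 counts and 3347 to 5669 counts). Sex-linked expression and Dox therefore cannot be told apart here. The part of cell composition in the results below was not tested, and in such bulk samples fewer cells of a type and less RNA per cell cannot be told apart.

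Initiation factor genes were mostly lower with Dox. Of the 49 tested, 28 were lower and 1, Eif4enif1, was higher at a threshold of 0.05 on the adjusted p of the edgeR test. Among all 14110 tested genes, 45.6% were called, 22.1% lower and 23.6% higher. The median log2 fold change of the initiation factor genes was -1.04 (quartiles -1.88 and -0.42), against 0.07 for all tested genes. In 42 of the 49 the fold change was below 0. The groups did not overlap in 41 genes, 37 of them lower with Dox, where 59.6% of all tested genes did not overlap (29.6% lower and 30% higher with Dox). The other 4 of the 41 were higher, namely Eif2b5, Eif4e3, Eif4enif1 and Eif5. Without Dox replicate 12, 37 genes were lower and 3 higher, in a fit where 24.5% of all tested genes were lower. Eif1a, Eif1ad, Eif2d, Eif3d, Eif4a3l1, Eif4e2, Eif4g1, Eif5a2 and Eif5b were then also called lower, and Eif4ebp3 and Eif6 higher. Each family from eIF1 to eIF5 held genes past the threshold and genes short of it.

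**Figure D1:**
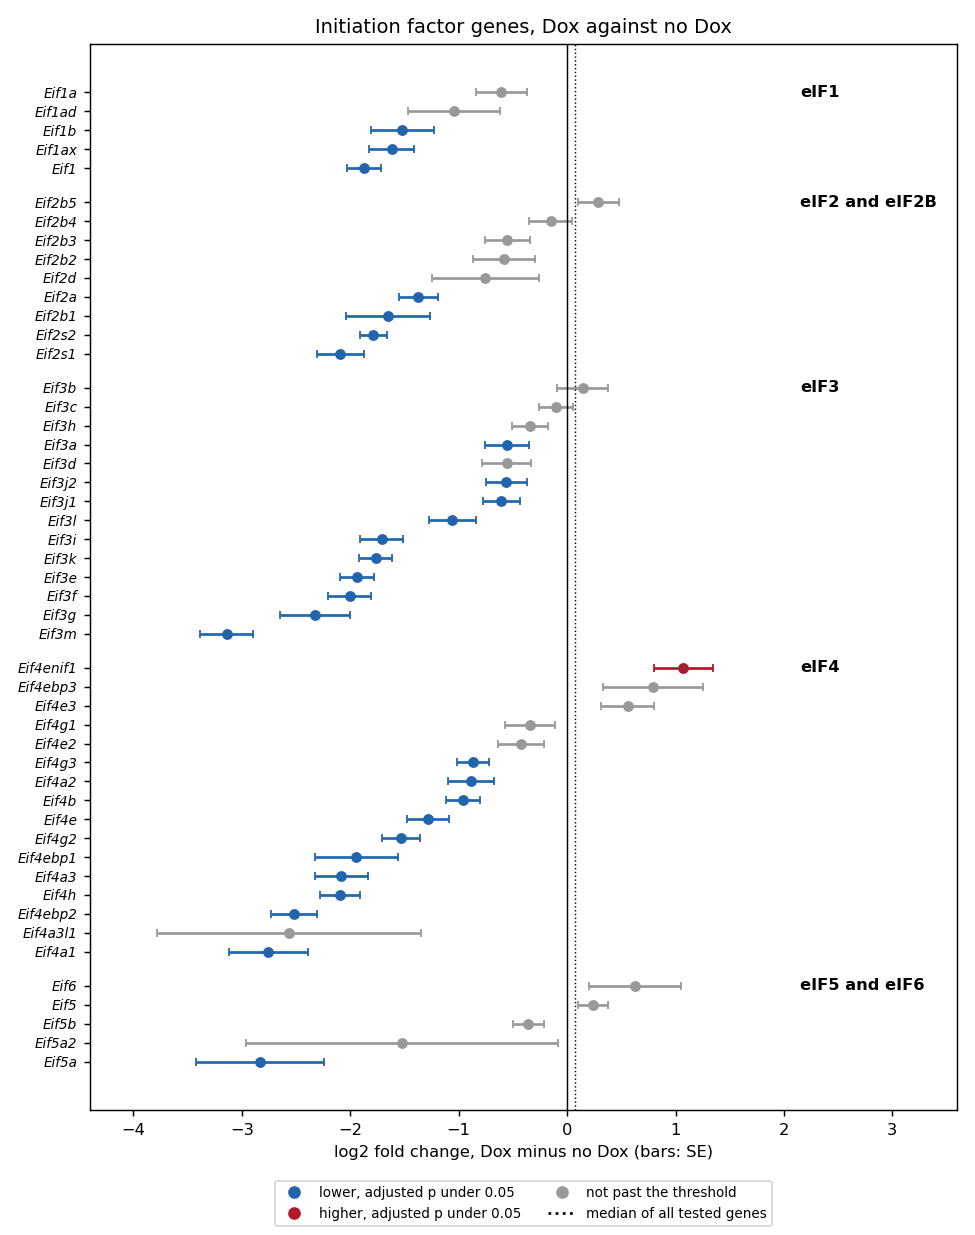
Log2 fold change of the 49 tested initiation factor genes, Dox minus no Dox, on the horizontal axis, with bars for the standard error and genes grouped by factor family. The 28 genes called lower lie to the left, down to -3.14 for Eif3m, and Eif4enif1 at 1.07 is the 1 gene called higher.

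Stretches of promoter are shown for the letters CACGTG, the E-box that MYC and related factors are known to bind. RefSeq promoter windows (GRCm38.p6, 250 bases before to 50 after an annotated start) were matched by gene ID for 38 of the 50 genes. CACGTG, which reads the same on both strands, was present in a window of 10 of the 38 genes (26.3%), against 11.3% of the 10681 tested genes with a window and 8.09% of all 27025 genes with one. Other motifs, TGGGAA (the core bound by the Notch partner RBPJ) and AAGATGGCG (a YY1 motif), each searched on both strands, were in windows of 11 (28.9%) and 1 (2.63%) of the 38, against 26.7% and 3.43% of tested genes. The 10 genes with CACGTG were Eif1b, Eif3a, Eif3f, Eif3k, Eif4a1, Eif4e, Eif4g1, Eif4h, Eif5a and Eif5a2. Of these, 8 were lower with Dox and Eif4g1 and Eif5a2 did not pass the threshold. Of the 28 tested genes whose windows lacked it, 15 were lower. Among all tested genes with a window, 24.2% of the 1204 with CACGTG and 22.4% of the 9477 without it were lower. The difference between 8 of 10 and 15 of 28 was not tested. These are matches of letters, not measured binding. The CACGTG of Eif3a lies after its annotated start and is not shown. Below are the 6 stretches, around a CACGTG before the start, that lie outside annotated exons, each written 5′ to 3′ on the strand of its gene with the CACGTG in capitals.
Eif4a1 (chr11:69672580-69672639, minus strand, box starting 189 bases before the start): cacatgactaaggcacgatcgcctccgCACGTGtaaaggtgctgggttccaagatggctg
Eif5a (chr11:69921428-69921487, minus strand, 185 bases before one of its starts): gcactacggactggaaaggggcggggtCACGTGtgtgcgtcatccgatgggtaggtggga
Eif3f (chr7:108934320-108934379, plus strand, 68 bases before the start): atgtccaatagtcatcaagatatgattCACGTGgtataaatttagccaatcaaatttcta
Eif3k (chr7:28981900-28981959, minus strand, 44 bases before the start): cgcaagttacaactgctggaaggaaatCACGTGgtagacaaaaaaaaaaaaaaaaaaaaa
Eif4g1 (chr16:20672646-20672705, plus strand, 54 bases before the start): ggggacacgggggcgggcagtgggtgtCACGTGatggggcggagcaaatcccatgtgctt
Eif5a2 (chr3:28781133-28781192, plus strand, 117 bases before the start, with another box in lower case near its left end): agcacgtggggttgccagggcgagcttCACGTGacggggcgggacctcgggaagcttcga
Eif4a1, Eif5a, Eif3f and Eif3k were lower, with log2 fold changes of -2.75, -2.83, -2.01 and -1.77. Eif4g1 and Eif5a2, which carry the same letters, had log2 fold changes of -0.34 and -1.52 that did not pass the threshold. Both were called lower without Dox replicate 12 (adjusted p = 0.000872 and 0.00136). Of the 8 genes counted as lower, Eif3a lost its call in 8 of 17 alternative fits and Eif4e in 1.

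The summed level of each family was set side by side in the 6 libraries. The 5 eIF1 genes summed to 998, 1070 and 1073 CPM without Dox and to 337, 345 and 347 CPM with Dox, or 32.8% of the level without Dox. The 9 eIF2 and eIF2B genes summed to 2943, 2945 and 2741 CPM without Dox and to 968, 970 and 939 CPM with Dox (33.3%). The 17 eIF4 genes went from 2882, 2886 and 3016 CPM to 1197, 1238 and 1293 CPM (42.4%). These 3 families were low in every Dox library and varied little within a group. The 14 eIF3 genes kept the largest share of these 4 families, going from 4613, 4430 and 4286 CPM to 2200, 2487 and 3165 CPM (58.9%), and replicate 12 was the highest of the Dox libraries. The 4 eIF5 genes summed to 1205, 1195 and 1090 CPM without Dox and 991, 981 and 1120 CPM with Dox, and here the groups overlapped. Sums weigh abundant genes most: Eif2s2 supplied most of the eIF2 sum, and without it the remaining 8 genes summed to 462, 448 and 437 CPM, then 249, 272 and 245 CPM under Dox (56.8%). By gene, the median log2 fold change was -1.52 for eIF1, -0.75 for eIF2 and eIF2B, -0.83 for eIF3, -1.12 for eIF4 and -0.36 for eIF5 and eIF6 together. Differences between these medians were not tested. Without Dox replicate 12 the median log2 fold change of eIF2 and eIF2B genes was -1.42, and the median log2 fold change of eIF3 genes was -1.09.

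**Figure D2:**
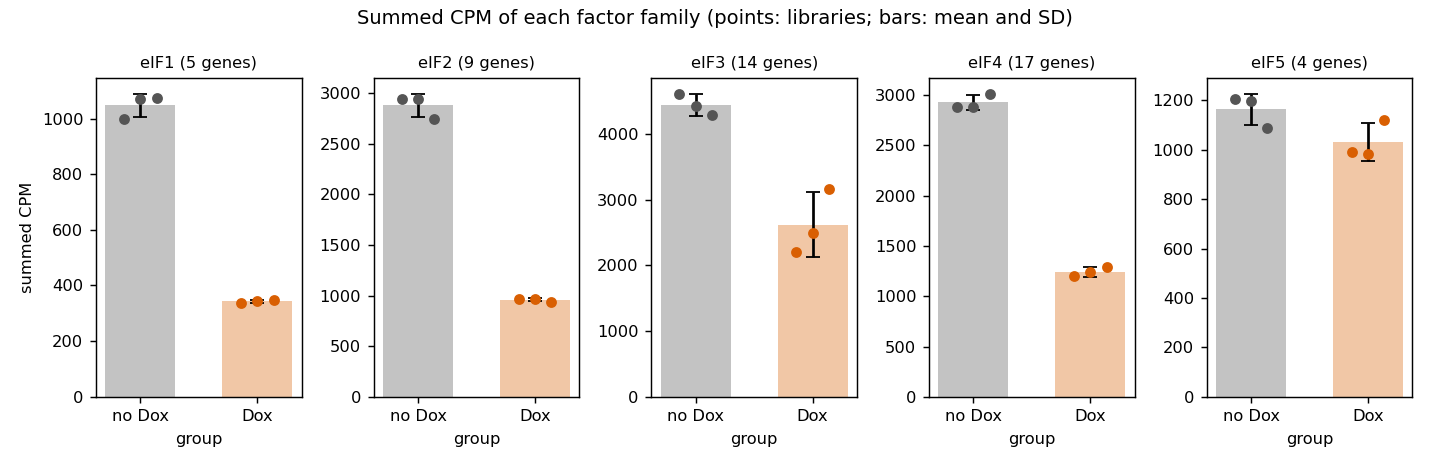
Summed CPM (vertical axes, each starting at 0 with its own scale) of the genes of eIF1, eIF2 with eIF2B, eIF3, eIF4 and eIF5 without and with Dox. Points are libraries and bars show the mean and SD of 3 libraries. The groups are apart for eIF1 to eIF4 and overlap for eIF5.

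Start codon recognition depends on eIF1 and eIF1A, small proteins that hold the ribosome in its scanning form. Eif1, which encodes eIF1, was 597, 654 and 663 CPM without Dox and 150, 194 and 177 CPM with Dox. Each Dox library was thus far below the lowest library without Dox, and the log2 fold change was -1.88 ± 0.16 (SE, adjusted p = 1.38e-05). Its close relative Eif1b went from 87.3, 106 and 97.6 CPM to 29.0, 50.1 and 21.9 CPM (log2 fold change -1.52 ± 0.29 (SE), adjusted p = 0.00197). The eIF1A protein is made from an autosomal and an X-linked gene in the mouse. The X-linked Eif1ax was 170, 186 and 194 CPM without Dox and 78.0, 53.6 and 47.4 CPM with Dox (log2 fold change -1.62 ± 0.21 (SE), adjusted p = 0.000201). The autosomal Eif1a was 82.4, 82.7 and 67.1 CPM without Dox and 48.0, 38.0 and 66.7 CPM with Dox. The highest Dox library lay just under the lowest one without Dox, and the log2 fold change of -0.61 ± 0.23 (SE) did not pass (adjusted p = 0.0579), though it did in 6 of 17 alternative fits, with an Eif1a log2 fold change of -0.87 (adjusted p = 0.00452) without Dox replicate 12. The ratio of Eif1ax to Eif1a went from 2.06, 2.25 and 2.89 to 1.62, 1.41 and 0.711 under Dox, a description of a pair picked after the values were seen. Eif1ad, named for a domain like that of eIF1A, was 62.2, 40.9 and 51.4 CPM without Dox and 31.8, 9.26 and 34.3 CPM with Dox, apart but not past the threshold (adjusted p = 0.0678).

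The eIF2 heterotrimer was represented by its alpha and beta subunits, since the gene of the gamma subunit is sex-linked and was left out by the rule. Eif2s1, the alpha subunit that the stress kinases phosphorylate, was 117, 118 and 102 CPM without Dox and 24.9, 33.3 and 20.8 CPM with Dox. No library of either group came near the other, with a log2 fold change of -2.09 ± 0.22 (SE, adjusted p = 5.15e-05). Eif2s2, the beta subunit, had the most counts of the 50 genes. It was 2481, 2497 and 2304 CPM without Dox and 720, 698 and 695 CPM with Dox, and it fell by 1.79 on the log2 scale (adjusted p = 4.86e-06). Its 3 Dox libraries were close together, with an SD of 13.6 CPM. Counts of Eif2s2 were 21.2, 21.2 and 22.5 times those of Eif2s1 in the libraries without Dox and 28.9, 20.9 and 33.4 times with Dox. The libraries read 1 fragment from the 3′ end of each mRNA, so counts were compared between genes without division by length, though priming within a transcript was not checked.

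The exchange factor eIF2B, which reloads eIF2 with GTP, has 5 subunit genes. Of these, 1 (20.0%) was lower, near the 22.1% of all tested genes, and 4 did not pass the threshold. The genes summed to 217, 213 and 218 CPM, then 178, 194 and 161 CPM under Dox, with no overlap. The lower one was Eif2b1, the alpha subunit that senses phosphorylated eIF2, at 22.4, 19.5 and 20.5 CPM without Dox and 3.67, 9.37 and 6.72 CPM with Dox (log2 fold change -1.65 ± 0.39 (SE), adjusted p = 0.00634). Eif2b5, the catalytic epsilon subunit, was 41.5, 40.3 and 45.6 CPM without Dox and 56.5, 47.5 and 51.5 CPM with Dox. All Dox libraries were the higher ones, but the log2 fold change of 0.29 ± 0.19 (SE) did not pass (adjusted p = 0.245). Eif2b4, the delta subunit, was 67.5, 70.3 and 77.8 CPM without Dox and 55.3, 78.5 and 60.0 CPM with Dox, and the groups overlapped (adjusted p = 0.555). Eif2b2 and Eif2b3 had log2 fold changes of -0.58 and -0.55 with adjusted p-values of 0.119 and 0.0526. Of the factors that can bring tRNA to the ribosome without eIF2, Eif2a was lower (99.5 ± 8.03 CPM and 38.4 ± 3.01 CPM (SD, n = 3 each), adjusted p = 0.000192). Eif2d ranged from 4.53 to 22.3 CPM with Dox, overlapped the group without Dox and did not pass (adjusted p = 0.238). Without Dox replicate 12 the Eif2d log2 fold change went from -0.75 to -1.49 and passed (adjusted p = 0.0130).

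**Figure D3:**
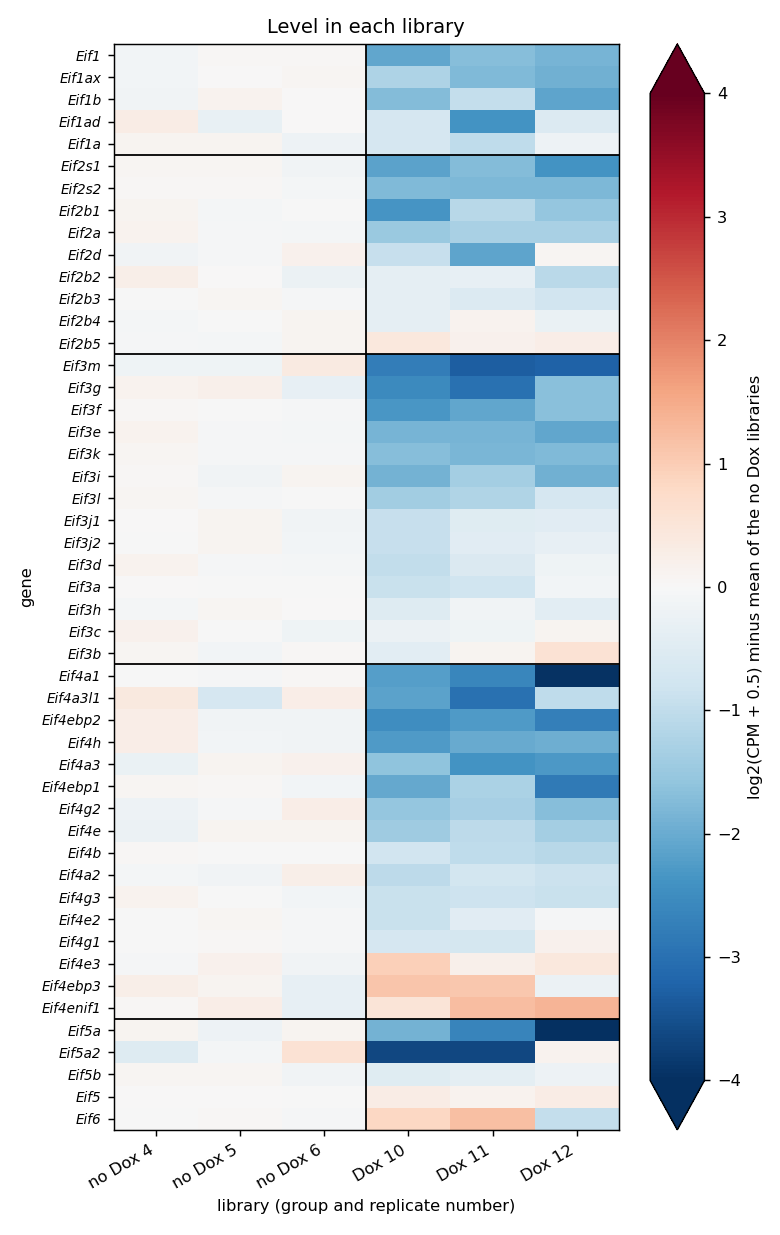
Each row is a gene and each column a library, and the colour gives log2(CPM + 0.5) minus the mean of the libraries without Dox for the 49 tested genes. Families are separated by lines, from eIF1 at the top to eIF5 and eIF6 at the bottom. Dox replicate 12 departs from the other Dox libraries for Eif6, Eif4g1, Eif3a and Eif5a2.

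eIF3 is the largest initiation factor, a scaffold of many subunits that binds the small ribosomal subunit and keeps it from joining the large one. Of its 14 genes, 10 were lower, against 22.1% of all tested genes. The other 4 (Eif3b, Eif3c, Eif3d and Eif3h) did not pass the threshold, and the spread among subunits was wide. Eif3m, a subunit of the octamer that forms the body of eIF3, was 114, 113 and 163 CPM without Dox and 18.4, 12.7 and 13.3 CPM with Dox. Its log2 fold change of -3.14 ± 0.24 (SE, adjusted p = 8.83e-06) was the furthest from 0 of the 49 tested genes. Eif3g, an RNA-binding subunit outside the octamer, went from 196, 201 and 139 CPM to 29.8, 21.9 and 55.3 CPM (log2 fold change -2.32 ± 0.33 (SE), adjusted p = 0.000317). Both genes stood clear of the other group in every library.

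Other subunits lay nearer to 0. Eif3b, a core scaffold subunit, was 132, 117 and 129 CPM without Dox and 94.4, 135 and 188 CPM with Dox. The Dox libraries fell on both sides of the others, and the log2 fold change was 0.14 ± 0.24 (SE, adjusted p = 0.648), or -0.15 without Dox replicate 12. Eif3c, which anchors eIF1 and eIF5, was 727, 644 and 578 CPM without Dox and 548, 574 and 698 CPM with Dox (log2 fold change -0.10 ± 0.16 (SE), adjusted p = 0.638), and its groups overlapped. Eif3a, the largest subunit, was 1324, 1306 and 1300 CPM without Dox and 709, 749 and 1215 CPM with Dox. Replicate 12 lay much nearer to the libraries without Dox than the other Dox libraries did. The log2 fold change of Eif3a was -0.56 ± 0.20 (SE, adjusted p = 0.0464), and the call did not hold in 8 of 17 alternative fits, with adjusted p up to 0.301. Without Dox replicate 12 the Eif3a log2 fold change was -0.86 (adjusted p = 0.000107). The ratio of Eif3m to Eif3b counts within a library went from 0.868, 0.970 and 1.27 to 0.195, 0.0940 and 0.0710 under Dox. These extremes were picked after the values were seen, and the ratio only restates their fold changes free of library scaling.

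The octamer and the subunits outside it were counted apart. Of all tested genes, 22.1% were lower. Of the 8 octamer genes (Eif3a, Eif3c, Eif3e, Eif3f, Eif3h, Eif3k, Eif3l and Eif3m), 6 were lower, with a median log2 fold change of -1.41. Of the 6 others, 4 were lower, with a median of -0.58 and a range from -2.32 to 0.14. That median lies between the values of the near-identical copies Eif3j1 and Eif3j2 (-0.61 and -0.56), so it rests on them. The difference between the octamer and the other subunits was not tested. Eif3e, Eif3f and Eif3k stood at 26.1%, 24.9% and 29.4% of their levels without Dox, and Eif3i, outside the octamer, at 30.6%. Eif3l was at 48.0% (adjusted p = 0.00293). Eif3h, at 186 to 206 CPM, then 138 to 179 CPM under Dox, did not pass (adjusted p = 0.114), nor did the cap-binding subunit Eif3d (log2 fold change -0.56, adjusted p = 0.0661). Eif3j1 and Eif3j2, loosely attached subunits that stabilise the ribosome complex, fell by 0.61 and 0.56 on the log2 scale (adjusted p = 0.0161 and 0.0341). The call of Eif3j1 was lost in 2 of 17 alternative fits (adjusted p up to 0.162) and that of Eif3j2 in 7 (up to 0.279). They are near-identical copies, and counts of Eif3j2 were 0.487 to 0.536 of those of Eif3j1 in all 6 libraries, so their separate values are uncertain. Without the multi-copy genes (Eif3j1, Eif3j2, Eif4a3 and Eif4a3l1), the median log2 fold change of eIF3 genes was -1.38 and 25 of 45 genes were lower.

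The eIF4F complex and its helpers were lower with Dox in 6 of 7 genes, against 22.1% of all tested genes. Eif4a1, the main helicase of eIF4F, was 448, 436 and 463 CPM without Dox and 97.3, 73.6 and 28.6 CPM with Dox. The libraries without Dox were nearly level and the Dox libraries spread widely, with replicate 12 the lowest. The log2 fold change of Eif4a1 was -2.75 ± 0.37 (SE, adjusted p = 0.000222). Eif4e, the cap-binding subunit, was 93.3, 118 and 117 CPM without Dox and 39.9, 52.4 and 42.0 CPM with Dox (log2 fold change -1.29 ± 0.19 (SE), adjusted p = 0.000494). The call of Eif4e was lost with the length trend taken out of each library (log2 fold change -0.25, adjusted p = 0.304). Of the scaffolds, Eif4g3 was lower, going from 269, 244 and 226 CPM to 132, 139 and 134 CPM (adjusted p = 0.00114). Eif4g1, the major scaffold, was 325, 341 and 318 CPM without Dox and 204, 203 and 370 CPM with Dox. Replicate 12 exceeded every library without Dox, and the log2 fold change of -0.34 ± 0.23 (SE) did not pass (adjusted p = 0.262). Without replicate 12 it was -0.70 (adjusted p = 0.000872). The helicase cofactors Eif4b and Eif4h fell by 0.96 and 2.10 on the log2 scale (adjusted p = 0.000891 and 1.85e-05).

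Close relatives of these genes were compared within each library. Eif4a2, the second eIF4A helicase, was 48.9, 46.0 and 60.0 CPM without Dox and 24.8, 31.0 and 27.9 CPM with Dox (log2 fold change -0.89 ± 0.22 (SE), adjusted p = 0.00738). The call of Eif4a2 was lost with scaling by library size only (log2 fold change -0.58, adjusted p = 0.0546). Counts of Eif4a1 were 9.16, 9.47 and 7.72 times those of Eif4a2 in libraries without Dox and 3.93, 2.38 and 1.02 times in Dox libraries. Its log2 difference was -2.04 ± 0.57 (SE, exact two-sided permutation p = 0.1, the smallest that 3 against 3 can give, 0.12 after Benjamini-Hochberg adjustment over 6 ratios). The Eif4e to Eif4e2 ratio, between the cap-binding factor and a relative that represses translation, went from 0.772, 0.921 and 0.996 to 0.604, 0.584 and 0.359 under Dox, with a log2 difference of -0.83 ± 0.27 (SE) and the same p-values. Eif4e2 itself had a log2 fold change of -0.42 (adjusted p = 0.136), and without Dox replicate 12 the Eif4e2 log2 fold change was -0.66 (adjusted p = 0.00927). Eif4e3, a cap-binding relative, was 33.9, 39.7 and 32.0 CPM without Dox and 68.2, 40.7 and 46.7 CPM with Dox, higher in each Dox library by a margin that did not pass (adjusted p = 0.0880). Its exons overlap those of a gene model on the same strand, so its counts are uncertain. For Eif4g1 to Eif4g3 the log2 difference was 0.46 ± 0.30 (SE, exact two-sided permutation p = 0.1, adjusted 0.12), and 0.17 without Dox replicate 12. Eif4g2, a scaffold that lacks the eIF4E site, went from 594, 667 and 826 CPM to 236, 274 and 213 CPM (adjusted p = 9.26e-05). Eif4a3, the helicase of the exon junction complex, fell by 2.08 on the log2 scale (adjusted p = 0.000107). Its relative Eif4a3l1 had 32, 10 and 25 counts without Dox and 3, 0 and 11 with Dox, and it did not pass (adjusted p = 0.112), though it did without Dox replicate 12 (adjusted p = 0.0350 for the Eif4a3l1 log2 fold change).

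**Figure D4:**
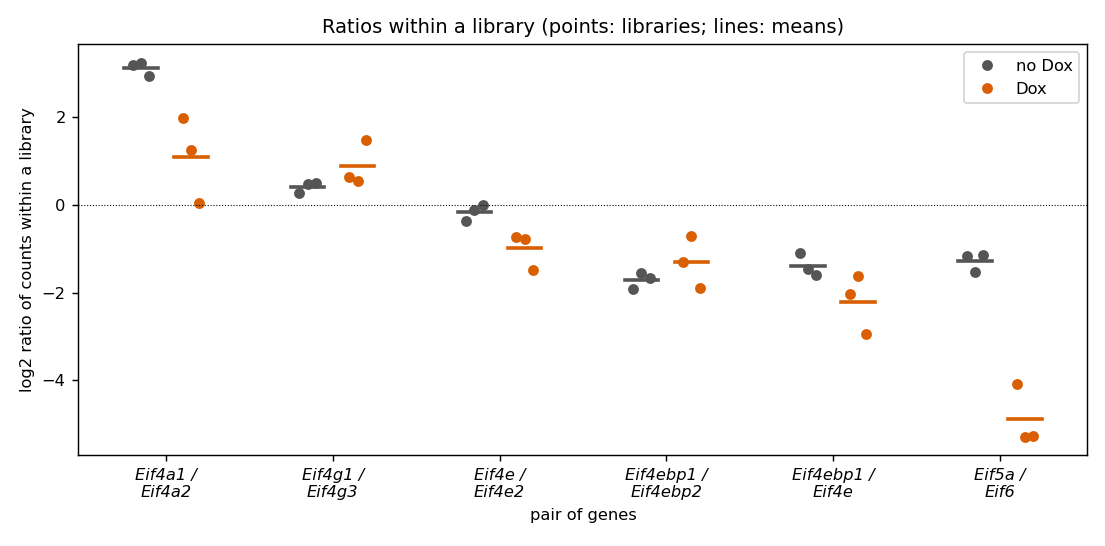
Log2 ratio of the counts of 2 genes within a library, for 6 pairs, with points for libraries and lines for group means. The groups are apart in 5 pairs and overlap for Eif4ebp1 to Eif4ebp2.

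Of the 4 genes for proteins that bind eIF4E, 2 were lower, 1 was higher and 1 did not pass the threshold. The share higher, 1 of 4, is near the 23.6% of all tested genes called higher. Eif4ebp1, the best-known mTORC1-regulated repressor, was 43.3, 42.4 and 38.5 CPM without Dox and 9.66, 17.0 and 5.40 CPM with Dox (log2 fold change -1.94 ± 0.38 (SE), adjusted p = 0.00233). Eif4ebp2, its relative, was 164, 124 and 123 CPM without Dox and 24.1, 27.6 and 20.2 CPM with Dox, with a log2 fold change of -2.52 ± 0.21 (SE, adjusted p = 1.44e-05). In both, every Dox library was well below any library without Dox. Eif4ebp3, of the same family, was 8.51, 7.70 and 5.59 CPM without Dox and 15.9, 15.8 and 6.06 CPM with Dox, where replicate 12 fell among the libraries without Dox (adjusted p = 0.187). Its exons also overlap a same-strand gene model, so its counts are uncertain. Eif4enif1, which carries eIF4E into the nucleus and represses bound mRNAs, was 31.6, 37.1 and 24.4 CPM without Dox and 43.5, 72.0 and 79.7 CPM with Dox. The groups did not overlap, and it rose by a log2 fold change of 1.07 ± 0.27 (SE, adjusted p = 0.00948). That call was lost when replicate 6 without Dox was left out (log2 fold change 0.83, adjusted p = 0.0665). The ratio of repressor to target, Eif4ebp1 to Eif4e, went from 0.464, 0.360 and 0.329 to 0.242, 0.324 and 0.129 under Dox, with a log2 difference of -0.81 ± 0.42 (SE, exact two-sided permutation p = 0.1, adjusted 0.12). The nearest libraries of the groups were almost level, and without Dox replicate 12 the difference was -0.44. Eif4ebp1 to Eif4ebp2 overlapped between the groups (exact two-sided permutation p = 0.3).

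The late steps, in which GTP is hydrolysed and the ribosomal subunits join, held 1 gene each for hydrolysis and joining, and neither passed the threshold. Eif5, which triggers hydrolysis by eIF2, was 352, 351 and 343 CPM without Dox and 429, 381 and 425 CPM with Dox. It was higher in each Dox library, and the log2 fold change of 0.24 ± 0.14 (SE) did not pass (adjusted p = 0.184). Eif5b, the GTPase that joins the subunits, was 825, 820 and 714 CPM without Dox and 557, 597 and 688 CPM with Dox (log2 fold change -0.36 ± 0.15 (SE), adjusted p = 0.0692, called in 7 of 17 alternative fits). Eif6, which keeps free large subunits from joining, was 53.6, 56.1 and 52.6 CPM without Dox and 95.8, 126 and 27.9 CPM with Dox. Replicates 10 and 11 lay above all libraries without Dox and replicate 12 below them all. The log2 fold change of Eif6 was 0.62 ± 0.42 (SE, adjusted p = 0.259), and 1.02 without replicate 12 (adjusted p = 0.000831).

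Eif5a encodes a factor named for initiation that acts mainly in elongation and carries the amino acid hypusine. It was 24.0, 19.3 and 23.9 CPM without Dox and 5.58, 3.19 and 0.659 CPM with Dox, from 95 to 161 counts and 5 to 41 counts. The groups were well apart, and the log2 fold change of Eif5a was -2.83 ± 0.59 (SE, adjusted p = 0.00329). The Eif5a to Eif6 ratio ranged from 0.343 to 0.455 without Dox and from 0.0236 to 0.0582 with it (log2 difference -3.60 ± 0.42 (SE), exact two-sided permutation p = 0.1, adjusted 0.12). Its paralog Eif5a2 had 26, 27 and 52 counts without Dox, against 0, 0 and 48 in the Dox libraries. Here replicate 12 lay within the group without Dox, and the gene did not pass (adjusted p = 0.416). Without that library, with 0 counts in both others, it was called lower (adjusted p = 0.00136 for the Eif5a2 log2 fold change).

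Other genes of the pathway were counted by list. Of 9 genes listed under elongation, 7 were lower and the other 2 did not pass. Log2 fold changes were -2.59 for Eef1e1, listed for its symbol only, and -2.44 for Eef1a1, the carrier of tRNA to the ribosome. Of 7 genes of termination and recycling 5 were lower, and of 5 genes of poly(A) binding 4 were lower, led by Denr, which recycles the small subunit (log2 fold change -1.91), and Paip2b, an inhibitor of poly(A)-binding protein (-1.91). In the list of mTORC1 and MNK signalling, 5 of 13 were lower and 1 higher. Its member Larp1, which binds mRNAs of the translation machinery, fell by 2.33 on the log2 scale, and Rheb, the activator of mTORC1, had a log2 fold change of -1.80. Of 6 genes for the kinases and phosphatase subunits that set eIF2 phosphorylation, 4 were higher, and Eif2ak3 and Ppp1r15b did not pass (log2 fold changes 0.41 and -0.25). Ppp1r15a, the inducible phosphatase subunit, went from a mean of 35.1 CPM to 129 CPM under Dox (n = 3 each, log2 fold change 1.88 ± 0.25 (SE), adjusted p = 0.000250), and the kinase gene Eif2ak4 had a log2 fold change of 1.25 (adjusted p = 0.0343). Of 7 tested targets of the integrated stress response, the programme that follows eIF2 phosphorylation, 5 were lower and 1, Atf4, was higher. Chac1 and Trib3 had log2 fold changes of -3.97 and -3.43, on 34 to 92 counts without Dox and 0 to 30 with Dox. Lists were compared with the 22.1% of all tested genes called lower and the 23.6% called higher, and no list was tested as a whole.

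Transcript length moved with the fold changes. Over the 49 initiation factor genes, Spearman's rho between length and log2 fold change was 0.26, and over 11992 tested genes with a length it was 0.28, a description in which all points share the same 6 libraries. The 35 initiation factor genes shorter than the median tested transcript (2705 bases) had a median log2 fold change of -1.29, and 21 (60%) were lower, whereas short genes as a whole had a median of -0.40 and 32.0% were lower. The 14 longer ones had a median of -0.58, and 7 (50%) were lower, against 0.28 and 15.6% for long genes as a whole. Single genes lay on both sides of these medians, and the part of length in the results was not tested. Among the 14 eIF3 genes rho was 0.60. With the length trend taken out of each library, 28 genes were lower and 3 higher, and the genes called were not all the same. Of all tested genes, 19.9% were lower in that fit. Eif4e, for which the annotation gives a median of 792.5 bases, and Eif3j2 were no longer called (Eif4e log2 fold change -0.25, adjusted p = 0.304; Eif3j2 log2 fold change -0.49, adjusted p = 0.0586). Eif4g1 and Eif5b joined the lower genes (Eif4g1 log2 fold change -0.78 and Eif5b log2 fold change -1.03), and Eif4ebp3 and Eif6 joined the higher ones. Among called genes that stayed called, the Eif3k log2 fold change went from -1.77 to -0.70, the Eif1b log2 fold change from -1.52 to -0.74 (adjusted p = 0.0470), the Eif3i log2 fold change from -1.71 to -0.99 and the Eif3g log2 fold change from -2.32 to -1.55. In the other direction, the Eif3a log2 fold change went from -0.56 to -0.97, the Eif3j1 log2 fold change from -0.61 to -1.04 and the Eif4g3 log2 fold change from -0.87 to -1.32. Length differed among these genes from 744 to 7797 bases.

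**Figure D5:**
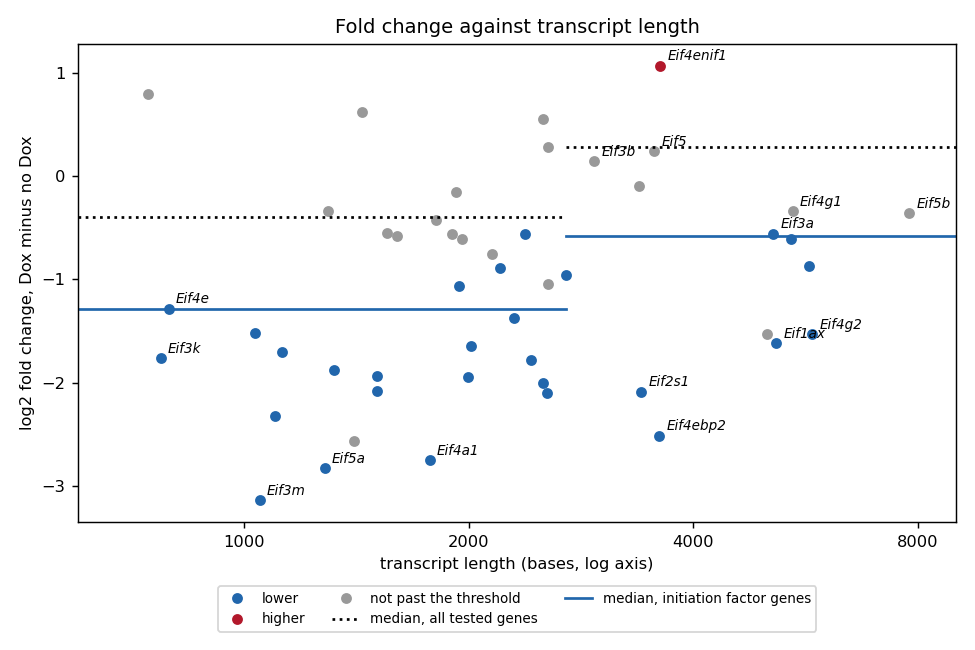
Log2 fold change (vertical axis) against transcript length (horizontal log axis, bases) for the 49 tested initiation factor genes. Lines give medians below and above 2705 bases for these genes (-1.29 and -0.58) and for all tested genes (-0.40 and 0.28).

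Precision differed between the groups. The median coefficient of variation of the 49 genes was 8.18% without Dox and 24.2% with Dox, and it was larger with Dox in 40 of the 49. Exons of 13 genes overlap another gene, most on the opposite strand, and whether the counting used strand is not given in the sources used here. Among them were 5 of the called genes (Eif1b, Eif2a, Eif3j1, Eif3m and Eif4a2), whose counts could hold reads of a neighbour. In a search of the last 300 bases of 49 genes' longest coding transcripts, 5 matched another annotated transcript, and for Eif4a3 the matching loci held 7.27% as many counts as the gene itself.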

How the data were processed

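RNA 3′ ends of 6 spleen samples were sequenced with a QuantSeq forward kit, per the labels' protocols. The authors deposited raw counts per Entrez gene ID, 1 column per library, and STAR, featureCounts and GRCm38 are named in the submitters' processing notes, while versions and settings are not given in the sources used here. All 6 columns were matched by title. Symbols and biotypes came from RefSeq (GRCm38.p6): 39374 of 40808 IDs matched. Counts were filtered with filterByExpr (minimum count 10, total 15), scaled by TMM and tested with the quasi-likelihood test of edgeR 4.0.16 in R 4.3.3 on all 6 libraries, with Benjamini-Hochberg adjustment over 14110 genes and a threshold of 0.05. CPM use the TMM-scaled totals. The standard error is the fold change divided by the root of F. Log2 ratios used counts plus 0.5. Copies were matches of at least 95% identity over at least 100 bases (BLAST). Transcript lengths are medians over basic coding transcripts of GENCODE vM21. The fit was also run on simulated counts, whose outcome is not reported here and is not used as support. SD and SE cover the spread between libraries, and the floor of 3 counts covers counting error only.

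Values in every library are given for 16 core genes and for the 2 genes with the largest and the 2 with the smallest fold change in each family, and pathway examples are the genes with the largest absolute change in their list. Other genes and ratios were singled out after their values were seen. The members and lists were chosen with earlier results of these data known. Alternatives were RLE, upper-quartile and library-size scaling, other filters, DESeq2 1.42.0, limma-voom (limma 3.58.1), and leaving out gene classes, members or libraries.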

Additional observations from a re-analysis of the deposited data

How the results depend on the processing

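No paired analysis was possible because no replicate number occurs in both groups. Of the 29 called genes, 23 kept their call in each of the 17 alternative fits that tested them, 6 (Eif3a, Eif3j1, Eif3j2, Eif4a2, Eif4e and Eif4enif1) lost it in at least 1, and none of the 29 reversed. Of the 20 genes not called, 16 were called in at least 1. The number lower stayed between 24 (library size only) and 37 (without Dox replicate 12), and was 33 with DESeq2, with limma-voom and without a low-count filter. Of all tested genes, 16.7% were lower with library size only and 24.5% without Dox replicate 12. That share was 23.9% with DESeq2, 24.8% with limma-voom and 13.3% without a low-count filter. The number higher, 1, became 4 with library size only (Eif2b5, Eif4e3, Eif4enif1 and Eif5), 2 with at least 10 counts in every library, and 3 with the length trend removed. It ran from 0 to 3 when 1 library was left out, with 0 without replicate 6 of the group without Dox (edgeR; 1 gene, Eif4enif1, at an unadjusted p under 0.05) and 3 without Dox replicate 12. Without the eIF4E binders and Eif1ad it was 0 by edgeR, DESeq2 and limma-voom, since Eif4enif1 is among those left out, and 1 gene, Eif4e3, had an unadjusted p under 0.05 by edgeR.

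The median log2 fold change of initiation factor genes was -0.94 with upper-quartile factors, -0.73 with library size only, -1.18 with no low-count filter, -0.81 under the stricter filter (10 counts or more in each library), -1.11 with limma-voom with or without a weight for each group, -0.97 with the length trend removed, and -1.30 to -0.96 with 1 library left out. Scaling by library size alone shifted all tested genes from a median of 0.07 to 0.38. With it, the median log2 fold change of eIF2 and eIF2B genes was -0.46, the median log2 fold change of eIF3 genes was -0.53 and the median log2 fold change of eIF4 genes was -0.81. The eIF2 median was -1.11 with both limma-voom fits and -1.42 to -0.71 with 1 library left out. The eIF3 median was -1.38 without multi-copy members and -1.09 to -0.72 with 1 library left out. The eIF4 median was -0.84 under the stricter filter. Reversals concerned 4 genes that were not called: Eif2b4 log2 fold change (0.16 with library size only and 0.0928 with the length trend removed), Eif3b log2 fold change (-0.003 without a low-count filter, and -0.15 to 0.33 with 1 library left out), Eif3c log2 fold change (0.21 with library size only and 0.0199 under the stricter filter) and Eif3h log2 fold change (0.27 with the length trend removed). The cause of these shifts was not tested. The fits with the length trend removed, with a weight for each group, and with scaling factors from genes other than the Eif genes were chosen after seeing the data.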
